A study of Mus musculus with 15 samples.

Results

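The effect of homoarginine supplementation on miRNA in the left ventricle (LV) was examined in mice that lack arginine:glycine amidinotransferase (AGAT). AGAT-/-hArg mice, which received homoarginine from osmotic mini pumps for 4 weeks, were compared with AGAT-/- mice that were not supplemented, with 5 mice and 5 libraries in each group. These 10 of the 15 libraries of the series were chosen by their sample labels, and the test took in miRNAs with more than 10 reads in these 10 libraries together. This left 580 of the 1836 entries of the deposited counts, in which the 5p and the 3p arm of each of 918 precursors are listed separately, and each entry is called a miRNA here. Of the others, 722 had no read in the 10 libraries and 534 had between 1 and 10 reads.

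Both groups carry the AGAT deletion on a C57BL/6J background, come from heterozygous breeding as littermates and differ by the supplement. The supplement came from mini pumps, and whether AGAT-/- or wt mice carried a pump is not stated. An effect of the pump therefore cannot be told apart from that of the supplement. Age is not given in the labels. The 5 wt mice of the series, which were not supplemented, are given beside them as background. The labels place all AGAT-/-hArg libraries on sequencing lane 2 and all AGAT-/- and wt libraries on lane 8. Each lane holds libraries of 1 treatment, no value within a lane can be given, and an effect of the supplement and a difference between lanes cannot be told apart for any result below.

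AGAT forms homoarginine and guanidinoacetate, the precursor of creatine, so that AGAT-/- mice lack both products unless they are supplied. Homoarginine given to these mice supplies the amino acid and not creatine. MiRNAs are short RNAs that bind mRNAs through a seed near their 5′ end, and the members of a miRNA family can have almost the same mature sequence while they come from different genes.

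The sequences on which the comparison turns are those of the 6 miRNAs with the lowest p. Those of the mature miRNAs of other genes closest to them, among miRNAs with a sequence, stand beside them. They are given 5′ to 3′ from RefSeq (GRCm38.p6), with the seed (bases 2 to 8) in capitals. No sequence was found for mir-378a-3p, the most abundant member of the mir-378 family, so it was not compared with the other members. In the mir-378 family, mir-378c and mir-378d have their seeds at the same place, and mir-378b begins 1 base further inside.
mir-378b-3p: cUGGACUUggagucagaaga
mir-378c-5p: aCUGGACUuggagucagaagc
mir-378d-5p: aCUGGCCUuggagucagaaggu
In the mir-101 family, mir-101c-3p lies whole within mir-101a-3p, and the seeds are again offset by 1 base.
mir-101c-3p: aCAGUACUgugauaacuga
mir-101a-3p: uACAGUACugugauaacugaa
mir-101b-3p: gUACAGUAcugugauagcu
The other 3 miRNAs carry late numbers and are each close to a miRNA of another name, namely mir-3969-5p to mir-142a-5p, mir-3962-3p to let-7g-5p and mir-3966-5p to mir-22-3p.
mir-3969-5p: cCCUAAAGuagaaaucacua
mir-142a-5p: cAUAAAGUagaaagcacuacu
mir-3962-3p: aGGUAGUAguuuguacauuu
let-7g-5p: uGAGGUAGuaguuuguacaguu
mir-3966-5p: aGCUGCCAgcuguagaacugu
mir-22-3p: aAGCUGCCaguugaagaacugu

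Counted from 1 at the 5′ end of the first miRNA of each pair, mir-378b-3p and mir-378c-5p differ by A20C over 20 bases. For mir-378d-5p and mir-378c-5p the differences are C6A and G21C over 21 bases, for mir-3969-5p and mir-142a-5p they are C3A and U15G over 19 bases, for mir-3962-3p and let-7g-5p it is U18G over 20 bases, and for mir-3966-5p and mir-22-3p they are C10U and U13A over 21 bases. No base differs between mir-101c-3p and mir-101a-3p over 19 bases. Mir-142a-5p, mir-101a-3p, let-7g-5p and mir-22-3p are listed at 0 in all 15 libraries, whereas mir-378c-5p held 1358340 reads over the 15 libraries. It is not stated to which miRNA a read that fits more than 1 was assigned. For the mir-378 pairs, where both members hold reads, a split between them or with mir-378a-3p was not tested. In the other 4 pairs all reads are listed under the member named first. Some miRNAs that the study lists as changed in these mice are also at 0 here, so that a miRNA listed at 0 in all libraries is not read as absent, here and below.

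The AGAT-/- libraries of mice 6 to 10 held 427114, 557398, 365634, 482654 and 454326 reads. Those of the AGAT-/-hArg mice 11 to 15 held 464886, 570492, 394036, 389359 and 480688 reads, and no difference in total reads was found (p = 0.96 by exact permutation, of a lowest possible 0.00794). In such libraries 3 reads correspond to between 4.93 and 8.20 CPM (counts per 1e+06 reads, with library sizes scaled by TMM). The 3 most abundant miRNAs took 72.9% ± 0.235 of the reads in AGAT-/- and 72.4% ± 0.548 in AGAT-/-hArg mice (SD, n = 5 each; p = 0.0714 by exact permutation, adjusted p = 0.214 over 3 library measures). When each library was thinned to the smallest total, 641 ± 10.2 miRNAs had reads in AGAT-/- and 647 ± 18.8 in AGAT-/-hArg mice (SD, n = 5 each; p = 0.556 by exact permutation). With at least 3 reads required, the groups did not overlap, with 361 to 367 miRNAs in AGAT-/- and 372 to 382 in AGAT-/-hArg mice (p = 0.00794 by exact permutation, the lowest possible), so that this result depends on the minimum of reads. This count is not among the 3 library measures, and its p is unadjusted. The wt libraries held 343 to 371 such miRNAs.

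The tissue label was checked by muscle markers. Mir-499-5p, from an intron of the myosin gene Myh7b, was at 976 ± 79.8 CPM in AGAT-/- and 1012 ± 77.2 CPM in AGAT-/-hArg mice (SD, n = 5 each), and mir-208a-5p was at 102 ± 21.1 and 89.6 ± 15.1 CPM. The 5p arms of both mir-133a precursors and both mir-1a precursors had reads as well, while the 3p arms of mir-133a-1, mir-133a-2, mir-1a-1, mir-1a-2, mir-208a and mir-208b are listed at 0. Of the miRNAs of nerve and liver, mir-122-5p and mir-137-3p are listed at 0 as well, which like the zeros of the muscle miRNAs does not show their absence, and 1 of 8 was tested. This was mir-128-1-5p, at 49.1 ± 11.8 CPM in AGAT-/- and 66.5 ± 5.79 CPM in AGAT-/-hArg mice (SD, n = 5 each). This log2 fold change of 0.47 had an unadjusted p below 0.05 and did not pass (FDR = 0.515, edgeR's quasi-likelihood test). Mir-206, the marker of skeletal muscle, was not analysed here.

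Between AGAT-/-hArg and AGAT-/- mice, 4 of the 580 miRNAs differed (0.69%) at an FDR of at most 0.05 in edgeR's quasi-likelihood test. Mir-378b-3p was higher in AGAT-/-hArg mice (1 of 580, 0.172%), and mir-3969-5p, mir-101c-3p and mir-3962-3p were lower (3 of 580, 0.517%). Mir-3962-3p entered the test through its AGAT-/- reads alone, so its call is given as a description. An unadjusted p below 0.05 was found for 43 miRNAs (7.41%), 20 higher and 23 lower. The ranges of the groups did not overlap for 14 miRNAs (2.41%), 6 higher and 8 lower. Most miRNAs lay close to no change, with a median log2 fold change of 0.02 (quartiles -0.20 and 0.28). Among the 229 miRNAs with a mean above 10 reads, the median was -0.01 (quartiles -0.13 and 0.10), and 225 of them lay within 2-fold.

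**Figure D1:**
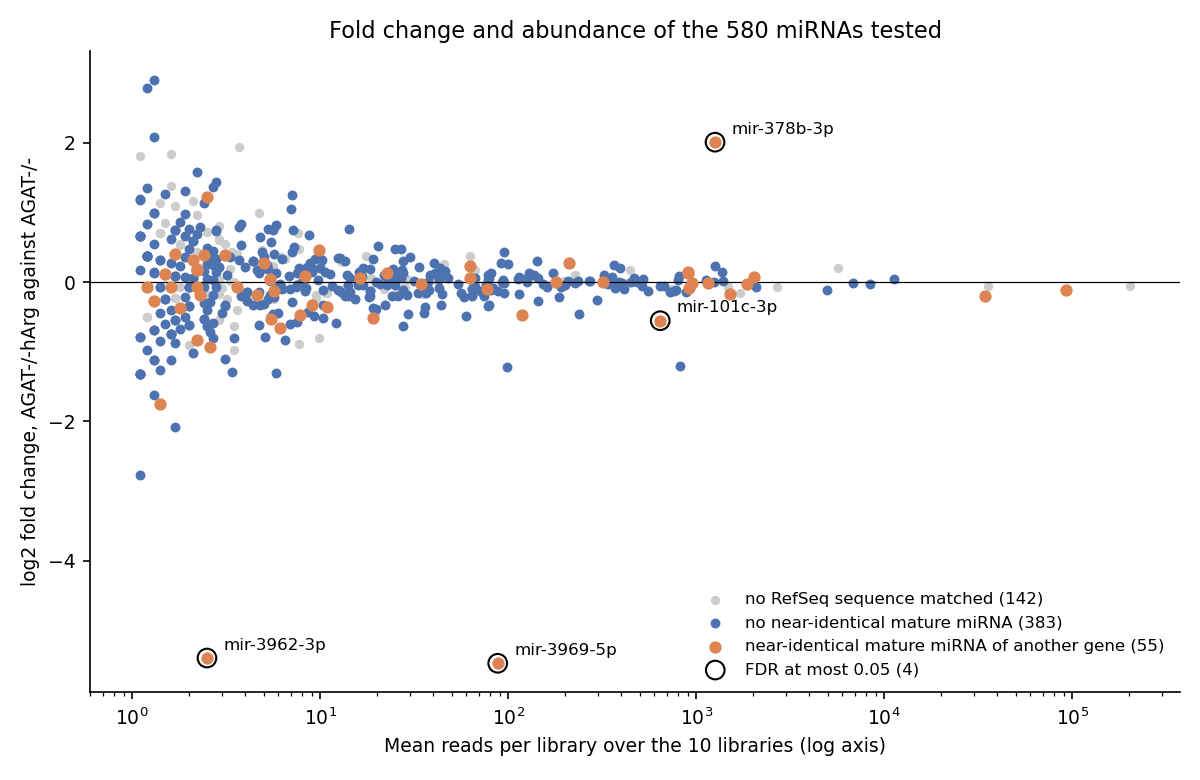
Each point is a miRNA, with its mean reads per library over the 10 libraries on a log axis and its log2 fold change between AGAT-/-hArg and AGAT-/- mice on the vertical axis. Circles mark the 4 miRNAs past the FDR, each of which has a near-identical mature miRNA of another gene. Orange marks the 55 miRNAs with such a relative among the 438 tested miRNAs with a sequence. The other 142, among them mir-378a-3p, had no sequence and were not checked. Mir-3962-3p is drawn at its fitted value, which depends on the prior count because its AGAT-/-hArg libraries are at 0.

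Mir-378b-3p was the only miRNA that passed as higher. Its mature sequence lies at chr11:88352839-88352858 on the plus strand, in an intron of Msi2, which is annotated on the opposite strand. The AGAT-/- mice 6 to 10 had 983, 1050, 1052, 1100 and 1131 CPM. The AGAT-/-hArg mice 11 to 15 had 3978, 4175, 4352, 4578 and 4179 CPM. Every supplemented mouse was thus far above every AGAT-/- mouse, and the mice of each group lay close together. Its level rose by 2.01 on the log2 scale, with a standard error (SE) of 0.08 (FDR = 4.03e-15, edgeR). In reads, mir-378b-3p held between 385 and 605 in AGAT-/- and between 1785 and 2542 in AGAT-/-hArg libraries.

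None of the other 3 tested mir-378 miRNAs passed in edgeR's test, although mir-378c-5p and mir-378d-5p had an unadjusted p below 0.05 and mir-378d-5p passed with limma-voom. The family has its largest member in mir-378a-3p, which is encoded in an intron of Ppargc1b, a gene of mitochondrial energy metabolism. Mir-378a-3p was at 447788 ± 21187 CPM in AGAT-/- and 427418 ± 18791 CPM in AGAT-/-hArg mice (SD, n = 5 each; log2 fold change -0.06, FDR = 0.831, edgeR), and when libraries were scaled by total counts its sign turned (0.01). Mir-378c-5p, which has 20 of the bases of mir-378b-3p but for A20C, was at 207878 ± 6588 CPM in AGAT-/- and 189851 ± 9108 CPM in AGAT-/-hArg mice. Its groups did not overlap, but with a log2 fold change of -0.12 (SE 0.04) it did not pass (FDR = 0.196, edgeR). The 4 opposite arms of the family are listed at 0.

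Mir-378b-3p remained a small part of its family. It took 0.13%, 0.149%, 0.145%, 0.152% and 0.147% of the mir-378 reads in the AGAT-/- mice 6 to 10. In the AGAT-/-hArg mice 11 to 15 it took 0.568%, 0.618%, 0.664%, 0.626% and 0.608%. The wt mice lay between 0.133% and 0.163%, with the AGAT-/- mice. The family as a whole took between 72.04% and 73.2% of all reads in AGAT-/- and between 70.7% and 73.2% in AGAT-/-hArg libraries, so that its sum overlapped between the groups.

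**Figure D2:**
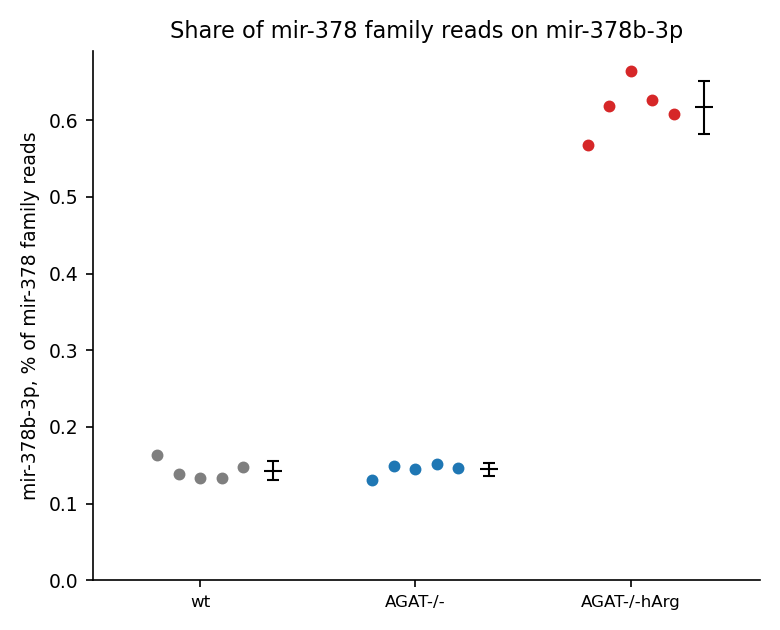
The share of mir-378 family reads that fell on mir-378b-3p is shown in percent for each of 5 wt, 5 AGAT-/- and 5 AGAT-/-hArg mice, with the mean and SD beside the points. The AGAT-/-hArg mice lie between 0.568% and 0.664%, above all mice of the other groups, which share lane 8.

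Mir-3969-5p showed the largest decrease among the miRNAs past the FDR with reads in both groups. It lies at chr5:87595963-87595982 on the minus strand and overlaps no other annotated gene. The AGAT-/- mice 6 to 10 had 131, 175, 161, 195 and 198 reads. The AGAT-/-hArg mice 11 to 15 had 0, 7, 4, 5 and 4 reads. The groups were far apart, with mir-3969-5p nearly absent from every supplemented mouse and undetected in mouse 11. Its level fell from 385 ± 71.2 to 8.34 ± 5.02 CPM (SD, n = 5 each), -5.47 on the log2 scale (SE 0.27, FDR = 3.62e-13, edgeR). The 3p arm is listed at 0 in all 15 libraries.

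Mir-101c-3p changed less but was measured with more reads. It lies at chr9:3038680-3038698 on the minus strand and overlaps no other annotated gene. The AGAT-/- mice 6 to 10 had 1837, 1444, 1653, 1498 and 1923 CPM. The AGAT-/-hArg mice 11 to 15 had 1051, 1105, 1208, 1313 and 973 CPM. The highest supplemented mouse, mouse 14, stayed below the lowest AGAT-/- mouse, mouse 7. On the log2 scale the difference was -0.55 (SE 0.09, FDR = 0.0012, edgeR).

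Of the 3 tested members of the mir-101 family mir-101c-3p passed, and the other 2 had log2 fold changes above 0. Mir-101b-3p, the most abundant, was at 4298 ± 739 CPM in AGAT-/- and 4501 ± 506 CPM in AGAT-/-hArg mice (SD, n = 5 each). This gave a log2 fold change of 0.08 (SE 0.10, FDR = 0.942, edgeR), and it turned to -0.0143 without AGAT-/- mouse 7. Mir-101a-5p, the arm opposite to the sequence that contains mir-101c-3p, was at 174 ± 17.8 CPM in AGAT-/- and 232 ± 24.2 CPM in AGAT-/-hArg mice, and with a log2 fold change of 0.42 (SE 0.13) it did not pass (FDR = 0.159, edgeR).

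Mir-3962-3p rested on few reads. It lies at chr1:194822035-194822054 on the plus strand and overlaps no other annotated gene. The AGAT-/- mice 6 to 10 had 0, 4, 7, 9 and 5 reads, and all 5 AGAT-/-hArg mice had 0. It passed the filter of more than 10 reads only through the 25 reads of the AGAT-/- group, where it is higher. Its call is therefore not independent of the filter. The groups overlapped at 0, since AGAT-/- mouse 6 had no read either. Set against 3 reads in each AGAT-/-hArg library, it was at least 1.77-fold lower than the 11.3 ± 8.12 CPM of the AGAT-/- mice (SD, n = 5; FDR = 0.0261, edgeR). It did not pass with limma-voom (FDR = 0.0739) or when animal numbers entered the model (FDR = 0.288, edgeR), in a range from 6.4e-06 to 0.288 over all settings. With mouse 6, 7 or 14 left out it passed, while its FDR in edgeR was 0.0702 without mouse 8, 0.0941 without mouse 9, 0.0604 without mouse 10, 0.0506 without mouse 11, 0.0559 without mouse 12, 0.0531 without mouse 13 and 0.0774 without mouse 15.

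The next miRNAs by p were the near relatives mir-378d-5p and mir-3966-5p. The AGAT-/- mice 6 to 10 had 80999.6, 80976, 80447.5, 73581 and 80486 CPM of mir-378d-5p. The AGAT-/-hArg mice 11 to 15 had 67149.5, 68501, 62209, 75605 and 68670.2 CPM. Mouse 9 of the AGAT-/- group and mouse 14 of the AGAT-/-hArg group overlapped, while the remaining mice were separate. Its log2 fold change of -0.20 (SE 0.05) did not pass (FDR = 0.0563, edgeR), but it passed in 7 of the other settings, in a range from 0.0023 to 0.24. Among these were limma-voom (FDR = 0.013) and edgeR without AGAT-/- mouse 9 (FDR = 0.0397) or 10 (FDR = 0.0303) or AGAT-/-hArg mouse 13 (FDR = 0.0399) or 14 (FDR = 0.0023).

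Mir-3966-5p had 265, 321, 314, 294 and 280 CPM in the AGAT-/- mice 6 to 10. The AGAT-/-hArg mice 11 to 15 had 239, 205, 193, 182 and 235 CPM. The groups did not overlap. On the log2 scale the difference was -0.47 (SE 0.13, FDR = 0.124, edgeR), and it passed with DESeq2 alone (FDR = 0.0436, against a highest value of 0.288 over all settings).

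**Figure D3:**
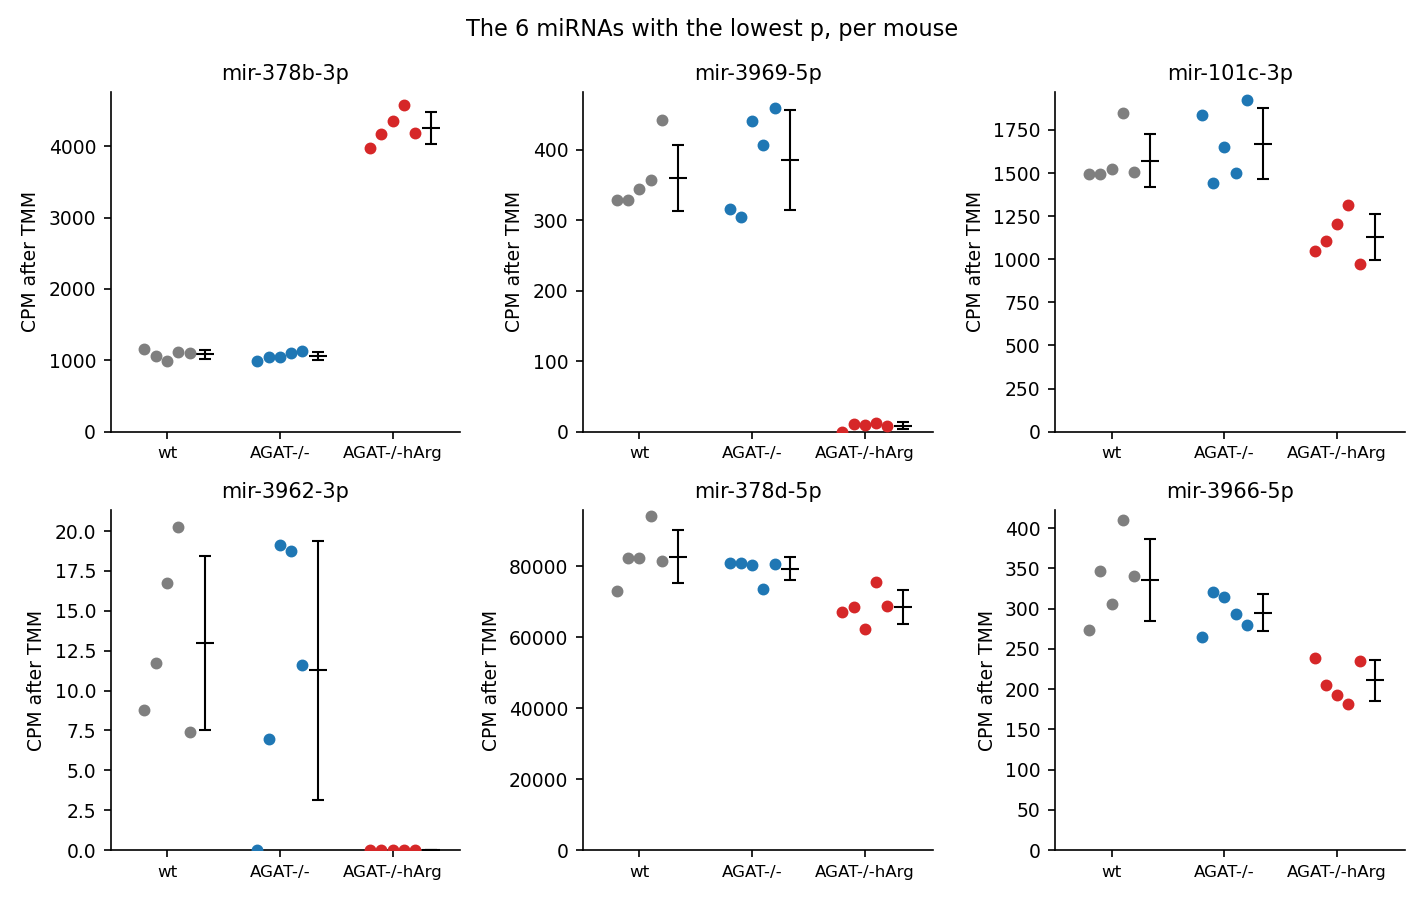
The CPM of the 6 miRNAs with the lowest p is shown for each of 5 wt, 5 AGAT-/- and 5 AGAT-/-hArg mice on axes that start at 0, with the mean and SD beside the points. Mir-378b-3p lies near 4253 CPM in AGAT-/-hArg mice against 1063 in AGAT-/- and 1085 in wt mice, mir-3969-5p lies near 0 in AGAT-/-hArg mice, and the wt mice lie with the AGAT-/- mice in the panels of the 4 miRNAs past the FDR.

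A near relative was a property of all 6 of these miRNAs. It was defined as a mature miRNA of another gene, with a different full sequence, that overlaps over at least 16 bases with at most 2 differences. A copy with the same full sequence was not counted, so miRNAs without a near relative can still have such copies. Over all 580 miRNAs a sequence was found for 75.5%, which is too few for a check of near relatives or of length, and both checks are void there. With a mean above 10 reads, where a sequence was found for 192 of 229 miRNAs (83.8%), 25 had a near relative. Of these, 3 passed the FDR, 8 had an unadjusted p below 0.05, and the groups did not overlap for 7, among them the 3p arms of let-7a-1 and let-7c-2 with 1 mature sequence in common. Of the 167 without a near relative, none passed in edgeR's test, 13 had an unadjusted p below 0.05, and the groups did not overlap for 2. Over all miRNAs with a mean above 10 reads 3 of 229 passed (1.31%), 22 had an unadjusted p below 0.05 (9.61%), and the groups did not overlap for 10 (4.37%). The median log2 fold change was -0.02 with and -0.01 without a near relative. This property was looked at after the values were seen, carries no test, and its part in the result was not tested.

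The 4 miRNAs past the FDR also had short mature sequences, 3 of them with 20 bases and mir-101c-3p with 19. Up to 20 bases were found for 14 of the 192 miRNAs with a mean above 10 reads and a sequence, of which 3 passed and 4 had an unadjusted p below 0.05, beside 1.31% and 9.61% of all miRNAs with such a mean. Mir-3962-3p has fewer reads and is not among the 14. Of the 48 with 21 bases, the 97 with 22 and the 33 with 23 bases or more, none passed in edgeR's test, with 6, 9 and 2 at an unadjusted p below 0.05. Length was looked at after the values were seen, and its part in the result was not tested.

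The wt mice give the level of these miRNAs without the deletion. They are compared with libraries that the comparison above also uses, so the values stand side by side and are not independent. AGAT-/-hArg mice differed from wt mice for 17 of 569 miRNAs (2.99%), and AGAT-/- mice for 12 of 562 (2.14%). Mir-378b-3p differed by 1.97 on the log2 scale (FDR = 1.55e-13, edgeR) between AGAT-/-hArg and wt mice and by -0.04 (FDR = 0.965, edgeR) between AGAT-/- and wt mice. For mir-3969-5p the values were -5.39 (FDR = 1.77e-12, edgeR) and 0.08 (FDR = 0.939, edgeR). For mir-101c-3p they were -0.48 (FDR = 0.00763, edgeR) and 0.07 (FDR = 0.896, edgeR). The groups on lane 8 thus lay close to each other for these miRNAs, and the AGAT-/-hArg group on lane 2 lay apart from both. Mir-378d-5p and mir-3966-5p were lower in AGAT-/-hArg than in wt mice as well, with log2 fold changes of -0.27 (FDR = 0.0131, edgeR) and -0.66 (FDR = 0.00562, edgeR).

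Behind these 6 came miRNAs that did not pass the FDR, most of them with few reads. Mir-383-5p had 4, 2, 0, 0 and 1 reads in AGAT-/- and 5, 8, 5, 4 and 8 in AGAT-/-hArg mice (log2 fold change 1.93, SE 0.58, FDR = 0.146, edgeR). Mir-384-5p had 7, 6, 1, 3 and 3 reads in AGAT-/- and 11, 13, 9, 8 and 10 in AGAT-/-hArg mice (log2 fold change 1.25, SE 0.37, FDR = 0.146, edgeR). In CPM neither pair of groups overlapped, though AGAT-/- mouse 6 and AGAT-/-hArg mouse 14 both had 4 reads of mir-383-5p. Both miRNAs passed in the fit without AGAT-/- mouse 6 (FDR = 0.0191 and 0.0407, edgeR; highest over all settings 0.476 for both). Against wt mice, mir-383-5p passed in AGAT-/-hArg mice (log2 fold change 2.06, FDR = 0.0381, edgeR). It held 7 reads in AGAT-/-, 30 in AGAT-/-hArg and 6 in wt mice in total. The filter of more than 10 reads was thus met only through the AGAT-/-hArg group, where mir-383-5p is higher. Its passes are not independent of the filter and are given as a description. Mir-1966-3p, which overlaps introns of Agrp and Ripor1, passed between AGAT-/- and wt mice (FDR = 0.0291, edgeR), with 18.1 ± 4.54 CPM in AGAT-/-, 6.99 ± 3.09 in AGAT-/-hArg and 5.56 ± 3.26 in wt mice (SD, n = 5 each). Between AGAT-/-hArg and AGAT-/- mice its log2 fold change was -1.31 (SE 0.38, FDR = 0.146, edgeR). Mir-452-3p had between 1 and 4 reads in AGAT-/- and at most 1 in AGAT-/-hArg libraries, and mir-7006-3p at most 1 and between 1 and 3, too few for a fold change.

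Small separations were found for some miRNAs with more reads, none of which passed the FDR. Mir-6948-3p had 21.7 ± 6.05 CPM in AGAT-/- and 37.5 ± 5.47 CPM in AGAT-/-hArg mice (SD, n = 5 each; log2 fold change 0.76), and mir-1194-3p had 48.8 ± 8.52 and 35.03 ± 4.27 CPM (log2 fold change -0.45). Mir-28a-3p was at 1998 ± 86.8 and 1795 ± 79.2 CPM (log2 fold change -0.14). The 3p arms of let-7a-1 and let-7c-2 have the same mature sequence and are not independent, and how reads were assigned between them is not stated. They were at 1857 ± 71.3 and 1855 ± 78.7 CPM in AGAT-/- and at 2031 ± 51.4 and 2024 ± 49.8 CPM in AGAT-/-hArg mice (log2 fold change 0.14 for both). For each of the 5, the mice of the groups did not overlap, and the FDR was between 0.228 and 0.749 (edgeR).

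None of the 9 tested muscle miRNAs passed in edgeR's test or had an unadjusted p below 0.05, and none passed with DESeq2 or limma-voom. Over all miRNAs tested the shares were 0.69% and 7.41%, so that these counts do not set the muscle miRNAs apart. Their median log2 fold change was 0.10 against 0.02 over all miRNAs, and their sum was 2195 ± 225 CPM in AGAT-/- and 2290 ± 162 CPM in AGAT-/-hArg mice (SD, n = 5 each). Mir-499-5p, the most abundant, had a log2 fold change of 0.06 (SE 0.10). Mir-208b-5p, from the gene of the slow myosin Myh7, had 12 reads in the 10 libraries and allows no statement.

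Markers of other cells of the heart were examined in the same way, and for these fewer cells of a type and less RNA per cell cannot be told apart. The counts below stand beside the 0.69% of all miRNAs tested that passed and the 7.41% with an unadjusted p below 0.05. None of the 6 tested endothelial and smooth muscle miRNAs passed in edgeR's test, and none had an unadjusted p below 0.05. Their sum of 11579 ± 1447 CPM in AGAT-/- and 13201 ± 2606 CPM in AGAT-/-hArg mice (SD, n = 5 each) was almost all mir-145a-3p of smooth muscle, with a log2 fold change of 0.20 (SE 0.11, FDR = 0.706, edgeR). Mir-143-3p is listed at 0, and the endothelial mir-126a-3p had 60 reads in the 10 libraries.

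Of 5 tested red blood cell miRNAs none passed in edgeR's test and 1, mir-486b-5p with at most 5 reads per library, had an unadjusted p below 0.05. Their sum was 7224 ± 620 CPM in AGAT-/- and 7076 ± 583 CPM in AGAT-/-hArg mice (SD, n = 5 each), led by mir-486a-5p at a log2 fold change of -0.06, which turned to 0.00386 with total counts. Mir-451a-5p, the defining miRNA of red blood cells, is listed at 0. Of 7 tested leukocyte miRNAs none passed in edgeR's test and 5 had a log2 fold change below 0. The 1 with an unadjusted p below 0.05 was mir-150-3p, which was lower in AGAT-/-hArg mice (log2 fold change -0.63, FDR = 0.34, edgeR). The sum of the 7 was 6989 ± 865 CPM in AGAT-/- and 7134 ± 518 CPM in AGAT-/-hArg mice. It was led by mir-146a-5p (log2 fold change -0.03), and mir-150-5p and mir-223-3p are listed at 0.

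MiRNAs linked to fibrosis and hypoxia did not pass either. Mir-21a-3p was at 511 ± 141 CPM in AGAT-/- and 510 ± 68.7 CPM in AGAT-/-hArg mice (SD, n = 5 each; log2 fold change 0.01). Of 5 tested members of the fibrosis group none passed in edgeR's test and 1 had an unadjusted p below 0.05, with a median log2 fold change of 0.27 against 0.02 over all miRNAs. That 1 was mir-29a-3p (log2 fold change 0.28, FDR = 0.651, edgeR). The 5p arms of mir-29b-1 and mir-29b-2 were at 0.27 and 0.39, and mir-21a-5p was at -0.10. The median thus lies with mir-29 and does not describe mir-21a. Over all miRNAs tested 0.69% passed and 7.41% had an unadjusted p below 0.05. Mir-210-5p of the hypoxia response was at 358 ± 41.9 and 337 ± 22.8 CPM (log2 fold change -0.07, FDR = 0.95, edgeR), and its 3p arm is listed at 0.

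The larger families and clusters held no miRNA past the FDR in edgeR's test, where 0.69% of all miRNAs tested passed, so that this count sets none of them apart. Over all miRNAs tested 7.41% had an unadjusted p below 0.05 and the median log2 fold change was 0.02. In the let-7 family 9 miRNAs were tested, none passed in edgeR's test or had an unadjusted p below 0.05, and the median log2 fold change was 0.03. Let-7j-5p, the most abundant, was at 3876 ± 502.98 CPM in AGAT-/- and 3444 ± 377 CPM in AGAT-/-hArg mice (SD, n = 5 each; log2 fold change -0.16). The mir-15/16 family, known from the cell cycle of cardiomyocytes after birth, had 5 tested members with a median of -0.00042 and none with an unadjusted p below 0.05, and mir-497a-5p, the most abundant, was at 2657 ± 285 and 2636 ± 299 CPM. The mir-17-92 cluster and its paralogues had 9 tested members with a median of -0.04 and none with an unadjusted p below 0.05.

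On the X chromosome, the cluster of mir-322 and mir-503 had 11 tested miRNAs, 1 of them with an unadjusted p below 0.05, and a median log2 fold change of 0.05, led by mir-322-5p at 24012 ± 1296 CPM in AGAT-/- and 24653 ± 1867 CPM in AGAT-/-hArg mice (SD, n = 5 each). In the cluster of mir-465, mir-470, mir-871 and mir-881 16 of 24 tested miRNAs had a log2 fold change below 0, with a median of -0.25, and none had an unadjusted p below 0.05 in edgeR's test. The sum of this cluster was 744 ± 93.04 CPM in AGAT-/-, 682 ± 130 CPM in AGAT-/-hArg and 452 ± 59.6 CPM in wt mice. The supplemented mice thus overlapped with the AGAT-/- mice in this sum, between 572 and 875 CPM against between 607 and 818 CPM, and lay above the wt mice, which reached 512 CPM.

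In the Sfmbt2 cluster 46 of 69 tested miRNAs had a log2 fold change above 0, with a median of 0.23, none passed in edgeR's test and 2 had an unadjusted p below 0.05. Most had few reads, and over all 351 tested miRNAs with a mean of up to 10 reads the median was 0.11, with quartiles of -0.33 and 0.42. Their sum was 548 ± 45.1 CPM in AGAT-/-, 614 ± 45.5 CPM in AGAT-/-hArg and 570 ± 29.1 CPM in wt mice, with SD over 5 mice each. Copies in this cluster have nearly the same sequence, and their reads are not independent. In the imprinted Dlk1-Dio3 cluster 20 of 33 tested miRNAs were above 0, with a median of 0.06, and 2 had an unadjusted p below 0.05. Mir-434-3p, its most abundant member, was at 2455 ± 341 CPM in AGAT-/- and 2858 ± 467 CPM in AGAT-/-hArg mice (log2 fold change 0.23, FDR = 0.555, edgeR).

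Of the smaller groups, the mir-30 family had 5, the mir-23/27/24 clusters 3, the mir-99/100 and mir-125 family 4, the mir-130 and mir-301 family 4 and the clusters of mir-192, mir-194 and mir-215 2 tested miRNAs. None of these passed in edgeR's test, with DESeq2 or with limma-voom, and 1 each in the mir-30 and the mir-130 and mir-301 family had an unadjusted p below 0.05. Their medians lay between -0.03 and 0.37 on the log2 scale.

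**Figure D4:**
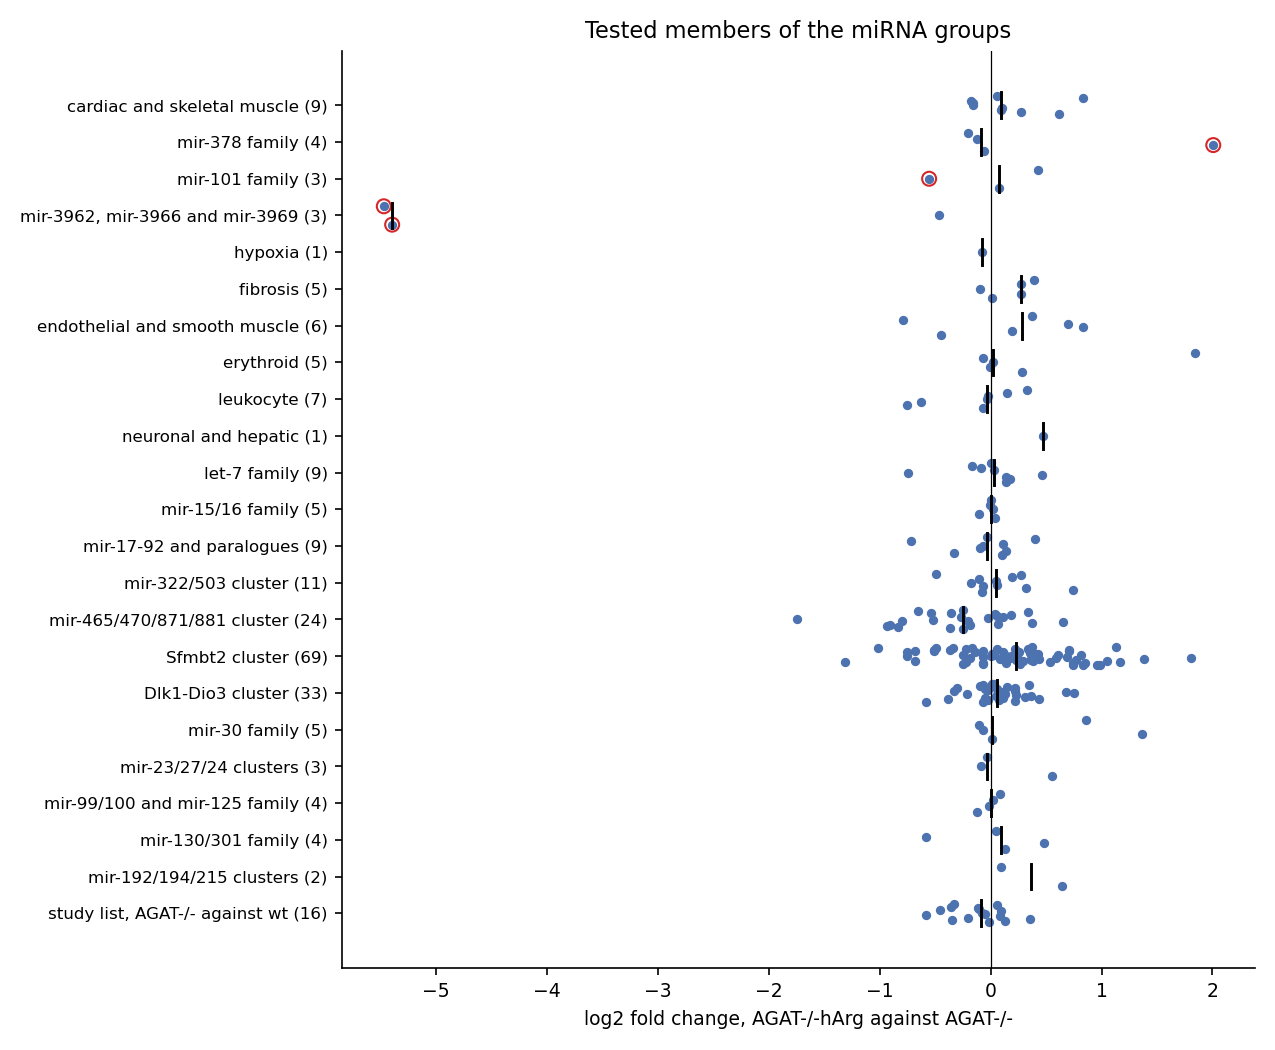
Each point is the log2 fold change of a tested miRNA between AGAT-/-hArg and AGAT-/- mice, by group, with the number tested in brackets and the median as a black line. Red circles mark the 4 miRNAs past the FDR, which belong to the mir-378 family, the mir-101 family and the late-numbered mir-3962, mir-3966 and mir-3969; mir-3962-3p is at its fitted value, which depends on the prior count, and so is the median of its group.

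The miRNAs that the study lists as changed by the AGAT deletion were followed into the supplemented mice. The list was drawn from the AGAT-/- and wt libraries, so that neither its AGAT-/- values nor its wt values are independent of this choice. Of 33 listed miRNAs 29 were found by name among the counts, 11 of them are listed at 0 in the 10 libraries and in the wt libraries, and 16 were tested. A change between groups cannot be read from these zeros, and how they arose is not stated. The others were not analysed here, so the result covers only part of the list. None of the 16 passed between AGAT-/-hArg and AGAT-/- mice in edgeR's test, with DESeq2 or with limma-voom, where 0.69% of all miRNAs tested passed in edgeR's test. An unadjusted p below 0.05 was found for 2 of the 16, against 7.41% of all miRNAs tested. Of them 11 had a log2 fold change below 0, with a median of -0.09 against 0.02 over all miRNAs tested.

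Mir-298-5p was at 594 ± 161 CPM in AGAT-/-, 431 ± 109 CPM in AGAT-/-hArg and 288 ± 57.9 CPM in wt mice, with SD over 5 mice each. In AGAT-/- mice 6 to 10 it had 172, 304, 183, 367 and 330 reads and in AGAT-/-hArg mice 11 to 15 it had 176, 242, 129, 205 and 281 reads. The groups overlapped, and the log2 fold change of -0.46 (SE 0.17) did not pass (FDR = 0.372, edgeR), while it passed with the filter lowered to 1 read (FDR = 0.0151, edgeR; highest over all settings 0.871). Mir-130a-5p, with 31.6 ± 5.28, 21.4 ± 7.73 and 12.8 ± 4.02 CPM in AGAT-/-, AGAT-/-hArg and wt mice, had a log2 fold change of -0.58 (SE 0.27, FDR = 0.642, edgeR).

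Of the 16 listed miRNAs 8 passed between AGAT-/-hArg and wt mice, beside 2.99% of all miRNAs tested there. Between AGAT-/- and wt mice 9 passed, beside 2.14%. The list was drawn from the same wt libraries, so these counts are not independent of the choice and carry no test. Besides mir-31-5p, mir-215-5p and mir-5119-3p, the 8 between AGAT-/-hArg and wt mice were mir-1983-3p (FDR = 4.91e-05), mir-499-5p (FDR = 0.0131), mir-871-3p (FDR = 0.0232), mir-470-5p (FDR = 0.0311) and mir-125b-2-3p (FDR = 0.0419, all by edgeR). This comparison and that with AGAT-/- mice both use the AGAT-/-hArg libraries and set lane 2 against lane 8. Mir-5119-3p was at 10.3 ± 11.4 CPM in AGAT-/- and 11.9 ± 14.5 CPM in AGAT-/-hArg against 288 ± 234 CPM in wt mice, with SD over 5 mice each. Mir-215-5p was at 1679 ± 136, 1779 ± 208 and 2716 ± 96.5 CPM in AGAT-/-, AGAT-/-hArg and wt mice. For mir-31-5p the levels were 1727 ± 167, 1589 ± 150 and 1155 ± 103 CPM. On the log2 scale AGAT-/-hArg mice differed from wt mice by -4.55 for mir-5119-3p (FDR = 8.11e-06, edgeR), by -0.61 for mir-215-5p (FDR = 0.00027, edgeR) and by 0.46 for mir-31-5p (FDR = 0.00763, edgeR). Within lane 8, AGAT-/- mice differed from the same wt mice by -4.91 (FDR = 2.08e-05, edgeR), -0.71 (FDR = 2.08e-05, edgeR) and 0.57 (FDR = 0.00168, edgeR), on libraries from which the list was drawn. The log2 fold changes between AGAT-/-hArg and AGAT-/- mice of these 3 miRNAs were 0.36, 0.09 and -0.11, with SE of 0.67, 0.09 and 0.10, and that of mir-5119-3p turned to -0.69 without AGAT-/-hArg mouse 11.

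Mice of a group differed from each other beyond sampling noise, with values of chi-square per df from 5.26 to 14.0 in 20 pairs. No library repeated another, and each was counted as its own replicate. Over the 229 miRNAs with a mean above 10 reads, the median coefficient of variation was 16.6% in AGAT-/- and 16.1% in AGAT-/-hArg mice. In AGAT-/- mice the most variable were both arms of mir-582, from an intron of Pde4d. They varied among wt mice as well. The coefficient of variation of mir-582-3p was 73.3% in AGAT-/- and 94.6% in wt mice, and that of mir-582-5p was 79.4% and 89.0%. Mir-582-3p had 1622, 929, 4352, 4774 and 1049 CPM in AGAT-/- and 2106, 802, 885, 918 and 808 CPM in AGAT-/-hArg mice. Mice 8 and 9 stood above the others, and mouse 11 overlapped with the AGAT-/- group. The log2 fold change of -1.20 (SE 0.37) did not pass (FDR = 0.18, edgeR). The call depended on the setting, since it passed with the filter lowered to 1 read (FDR = 3.59e-34, edgeR) and in no other setting, with a highest FDR of 0.73 in DESeq2. Mir-582-5p, named after its values were seen, followed the same mice, with 176, 104, 544, 602 and 114 CPM in AGAT-/- and 248, 83.8, 125, 97.5 and 97.7 CPM in AGAT-/-hArg mice. It too passed with the filter lowered to 1 read alone (FDR = 1.08e-14, edgeR, against a highest FDR of 0.859 in DESeq2).

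Across the same 229 miRNAs, which are not independent of each other, the log2 CPM of libraries correlated with r between 0.979 and 0.987 within AGAT-/- and between 0.984 and 0.989 within AGAT-/-hArg mice. Between the groups r was between 0.967 and 0.98. A first principal component with 38.8% of the variance placed the AGAT-/- mice between 2.46 and 4.10 and the AGAT-/-hArg mice between -4.83 and -2.66. It was carried mostly by mir-3969-5p (loading 0.82), followed by mir-378b-3p (loading -0.29). Since lane and supplement coincide, this separation cannot be assigned to either.

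**Figure D5:**
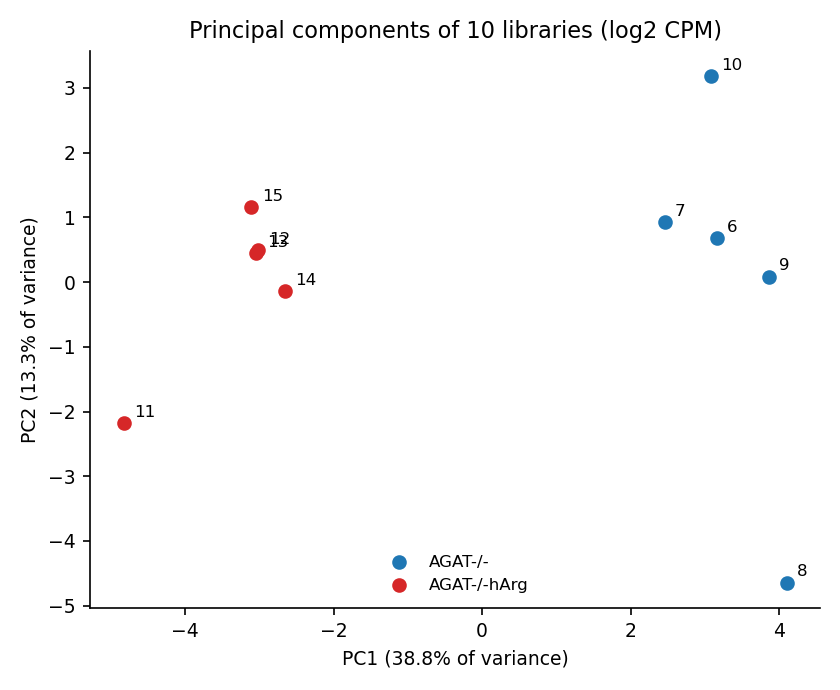
The first and second principal components of the log2 CPM of 229 miRNAs are shown for 5 AGAT-/- and 5 AGAT-/-hArg libraries, numbered by mouse. The groups lie on opposite sides of the first component (38.8% of the variance), and AGAT-/- mice 8 and 10 lie farthest apart on the second (13.3%).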

How the data were processed

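MiRNA was sequenced from LV tissue of 15 mice. The authors prepared small RNA libraries, used the CLC Genomics Workbench to assign reads to murine miRNAs of miRBase, and deposited whole-number read counts per mature miRNA without normalization. The versions of both and the handling of reads that match several miRNAs are not given in the sources used here. The submitters' processing notes name GRCm38. The authors name DESeq2 for their own tests.

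AGAT-/-hArg and AGAT-/- mice were compared in R 4.3.3 by the quasi-likelihood F test of edgeR 4.0.16 with TMM factors, and p-values were adjusted after Benjamini and Hochberg. The filter of more than 10 reads takes its number from the study's methods, which do not state whether it holds per library or for a sum. It was applied to the sum over the 10 libraries. Applied to each library, it leaves mir-3969-5p and mir-3962-3p untested and 2 miRNAs past the FDR (edgeR). Values per mouse are CPM on a TMM scale over all 15 libraries, and log2 CPM used a prior count of 1. Standard errors are the fold change divided by the root of the F statistic. For a lower bound on a fold, each library of a group at 0 was given 3 reads. Library measures were compared by an exact permutation test with scipy 1.17.1 (Python 3.11.15). The fits were tested on simulated data.

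The alternatives were DESeq2 1.42.0, limma-voom (limma 3.58.1), DESeq2's size factors, total counts, the mir-378 miRNAs left out, edgeR's robust option, 4 other count filters (filterByExpr, a mean above 10 reads, above 10 reads in each library, any read at all), all 15 libraries in 1 fit, the animal number as a covariate, an FDR of at most 0.01 and leaving out each mouse.

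Named miRNAs are those past the FDR with their other arms and families, the 10 next by p, up to 10 with the largest change among those whose groups do not overlap and whose mean is over 10 reads, the 5 most abundant, the tested miRNAs of the study's list, the most abundant and most changed member of each of 23 groups, and markers of the tissue; those without an informative value are given by counts. Others were named after their values were seen. The members and groups were chosen with earlier results of these data known. Sequences and positions of mature miRNAs are from RefSeq (GRCm38.p6; 438 of 580 tested miRNAs matched, by name, by place in the hairpin or, as for mir-101c-3p, as the gene's only mature miRNA in that table), and overlapping genes from GENCODE M21.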

Additional observations from a re-analysis of the deposited data

Results flagged for a closer look

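A mouse that stood far from the other 4 of its group was found in 10 of the 116 groups of 5 values examined, where chance gives about 1 in 20. Mir-378d-5p was at 73581 CPM in AGAT-/- mouse 9, below the other 4 AGAT-/- mice (80447.5 to 80999.6 CPM). Mir-582-3p was at 2106 CPM in AGAT-/-hArg mouse 11, above the others (802 to 918 CPM), and mir-582-5p was at 248 CPM in the same mouse (others 83.8 to 125 CPM). Both come from 1 precursor and are not independent.

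In AGAT-/- mice, mir-28a-3p was highest in mouse 10 with 2148 CPM (others 1938 to 1991 CPM), mir-145a-3p was highest in mouse 6 with 13929 CPM (others 10495 to 11256 CPM), and mir-497a-5p was lowest in mouse 8 with 2158 CPM (others 2705 to 2842 CPM). In AGAT-/-hArg mice, mouse 14 had the highest level of mir-486a-5p with 3727 CPM (others 2878 to 3044 CPM) and of mir-24-2-5p with 21856 CPM (others 16182 to 17408 CPM). Mouse 13 had the highest level of mir-146a-5p with 4526 CPM (others 3695 to 3914 CPM), and mouse 15 that of mir-467d-5p with 144 CPM (others 89.5 to 103 CPM).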

How the results depend on the processing

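Mir-378b-3p and mir-3969-5p passed the FDR in each of the 11 other fits of all 10 mice that tested them, and mir-101c-3p in each of 12. All 3 passed in each of the 10 fits that left out a mouse. In these fits the log2 fold change lay between 1.96 and 2.03 for mir-378b-3p, between -5.68 and -5.17 for mir-3969-5p and between -0.61 and -0.51 for mir-101c-3p. Mir-3962-3p passed in 7 of 9 and in 3 of 10.

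The number of miRNAs past the FDR was 8 with the filter lowered to 1 read, with mir-378d-5p, mir-298-5p and both mir-582 arms added, and 2 with the filter raised to over 10 reads in each library, which leaves out mir-3969-5p and mir-3962-3p. Other settings gave 3 to 5 and fits without 1 of the mice gave 3 to 6, the 6 being reached without AGAT-/- mouse 6. The cause was not tested. No paired analysis was possible because the groups share no mouse numbers.

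The difference in total reads between AGAT-/-hArg and AGAT-/- mice of 2467 lay between -25183 and 27460.2 when mice were left out in turn. That in the share of the 3 most abundant miRNAs lay between -0.66 and -0.32 percentage points, and its p was below 0.05 without AGAT-/-hArg mouse 11 alone (exact permutation test, p = 0.0317). That in miRNAs with reads was 6.1, and 2.22 to 13.8 when mice were left out in turn. For miRNAs with at least 3 reads, a count outside the 3 library measures, it was 12.6 (exact permutation test, unadjusted p = 0.00794, the smallest possible).

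No miRNA past the FDR changed its sign in any setting. Among others the sign turned with total counts for mir-378a-3p (0.0108), mir-151-3p (0.0145), mir-125b-2-3p (0.0546), mir-182-5p (0.0251), mir-486a-5p (0.00386), mir-146a-5p (0.0455), mir-497a-5p (0.0682), mir-92a-2-3p (0.00182), mir-201-5p (0.0471) and mir-24-2-5p (0.0334). With animal numbers in the model it turned for mir-30d-5p (0.0726), let-7g-3p (0.0966), mir-497a-5p (0.000327), mir-201-5p (0.00852), mir-30b-3p (-0.0691) and mir-1a-1-5p (0.17). Mir-497a-5p also turned without the mir-378 miRNAs (0.00726), with over 10 reads in each library (0.00997), with a mean above 10 reads (0.00346) and with filterByExpr (0.00266), mir-30b-3p with all 15 libraries (-0.00228) and mir-100-3p with limma-voom (0.0337).

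With each mouse left out, the log2 fold change crossed 0 for mir-101b-3p (-0.0143 to 0.11), mir-322-5p (-0.0223 to 0.0642), mir-5119-3p (-0.69 to 1.16), mir-100-5p (-0.23 to 0.27), mir-182-5p (-0.17 to 0.0412), mir-21a-3p (-0.12 to 0.10), mir-146a-5p (-0.11 to 0.0637), mir-497a-5p (-0.0694 to 0.0262), mir-92a-2-3p (-0.14 to 0.00203), mir-201-5p (-0.13 to 0.0621), mir-30b-3p (-0.0771 to 0.0895), mir-100-3p (-0.39 to 0.10), mir-130b-5p (-0.12 to 0.23) and mir-1a-2-5p (-0.33 to 0.0117).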
